A study of Mus musculus with 24 samples.

Results

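H3K4me1 after 45 min of lipopolysaccharide (LPS) was described from the 4 chromatin immunoprecipitation sequencing (ChIP-seq) peak lists of this mark, which hold 248851 of the 756484 peaks of the series. LPS was set against untreated within cells carrying a hairpin against Wdr82 and within cells carrying a scrambled hairpin. The lists held 61848 peaks in shWdr82 LPS cells and 60602 in shWdr82 untreated cells. They held 65149 peaks in scrambled LPS cells and 61252 in scrambled untreated cells. The cells were primary macrophages grown from bone marrow of FVB/Hsd mice and taken on day 7 of differentiation. They had been infected with retrovirus and selected with puromycin, so the controls share both treatments. shWdr82 stands for the hairpin labelled sh1137, the only hairpin against Wdr82 in these libraries, and the peak lists carry no measure of how far Wdr82 was depleted. LPS was given at 10 ng/ml. By their titles the libraries of H3K4me1, of H3K36me3 and of RNA polymerase II (Pol II), total or phosphorylated at serine 2 (Ser2P), were collected after 45 min of LPS and those of H3K27ac and H3K4me3 after 4 h, whereas the treatment protocol names 4 h alone. The control vector was a scrambled hairpin for the antibodies collected at 45 min and an empty vector for H3K27ac and H3K4me3.

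Monomethylation of histone H3 at lysine 4 is laid down by the MLL3 and MLL4 enzymes and marks enhancers, both those in use and those that are primed but silent, as well as the flanks of promoters. Acetylation of lysine 27 (H3K27ac) is found at active enhancers and promoters, and Pol II at enhancers transcribes short unstable RNAs. In macrophages, LPS acts through the receptor TLR4 and factors such as NF-kB, and stimulation is known to add H3K4me1 at some enhancers that had little of it before. WDR82 is a subunit of the SET1 complexes, which trimethylate lysine 4 at promoters, and of a PNUTS phosphatase complex that acts in transcription termination.

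Every group had 1 library, so no difference has a replicate check and no test was run. The intervals in parentheses are exact 95% binomial intervals, or paired Wald intervals for differences of shares, and cover counting error only. The cultures are bulk, so fewer cells with a mark and less of it per cell cannot be told apart. Read depth is unknown. Positions are on the mm9 build and counted from 1. No annotation of that build was used, so regions are given by position and by the other marks they hold, without gene names or sequence.

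Within each vector, more H3K4me1 peaks were gained than lost with LPS when all deposited peaks were counted, and in scrambled cells this order turned round with lists of equal length. A gained peak is an LPS peak that shares no base with the untreated list of its vector, and a lost peak is an untreated peak that shares none with the LPS list. In shWdr82 cells 10838 peaks were gained, 17.5% (17.2 to 17.8) of the LPS list, and 8638 were lost, 14.3% (13.98 to 14.53) of the untreated list. In scrambled cells 10095 peaks were gained, 15.5% (15.2 to 15.8) of the LPS list, and 7414 were lost, 12.1% (11.8 to 12.4) of the untreated list. The other peaks, 51010 in the shWdr82 LPS list and 55054 in the scrambled LPS list, were kept, that is, they shared at least 1 bp with the untreated list. The LPS list was the longer of the pair in both vectors. With the 60602 highest-scoring peaks of each library, the number in the shortest list, 10110 peaks were gained and 9111 lost in shWdr82 cells, against 7850 gained and 8778 lost in scrambled cells.

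Gained and lost peaks were alike in size and were smaller and weaker than kept peaks. Gained peaks had a median width of 1169 bp in shWdr82 cells and 1141 bp in scrambled cells. Lost peaks had a median width of 1149 bp in shWdr82 cells and 1096 bp in scrambled cells. Kept LPS peaks had a median width of 2008 bp in shWdr82 cells and 1963 bp in scrambled cells. The authors' peak score, which starts at 50 in these lists, had a median of 74.2 for gained and 206 for kept LPS peaks in shWdr82 cells, and of 74.5 for gained and 235 for kept LPS peaks in scrambled cells. A score of at least 100 was reached by 2788 gained peaks (25.7%) in shWdr82 cells and by 2632 (26.1%) in scrambled cells.

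A large part of the DNA that was covered in a single treatment lay in kept peaks, beyond the span of their partner. In shWdr82 cells 28.8 Mb were covered after LPS only, of which 55.4% lay in gained peaks. There 20.7 Mb were covered in untreated cells only, of which 63.1% lay in lost peaks. In scrambled cells 24.8 Mb were covered after LPS only, of which 58.4% lay in gained peaks. There 20.8 Mb were covered in untreated cells only, of which 48.0% lay in lost peaks. At kept peaks of shWdr82 cells 12.9 Mb were covered after LPS only and 7.66 Mb in untreated cells only. In scrambled cells these were 10.3 Mb and 10.8 Mb. The bases shared by both treatments came to 121 Mb in shWdr82 cells and 128 Mb in scrambled cells.

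The gains were spread over the genome, here with all deposited peaks. The share of LPS peaks gained was above the share of untreated peaks lost on 20 of 20 chromosomes in shWdr82 cells and on 19 of 20 in scrambled cells. Chromosome X had the highest shares of both kinds in both vectors. In shWdr82 cells 24.6% of its LPS peaks were gained and 20.5% of its untreated peaks were lost. In scrambled cells 18.8% were gained and 21.3% lost, so X was the chromosome on which the lost share exceeded the gained share in scrambled cells. The median over chromosomes for gained peaks was 17.6% in shWdr82 cells.

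**Figure D1:**
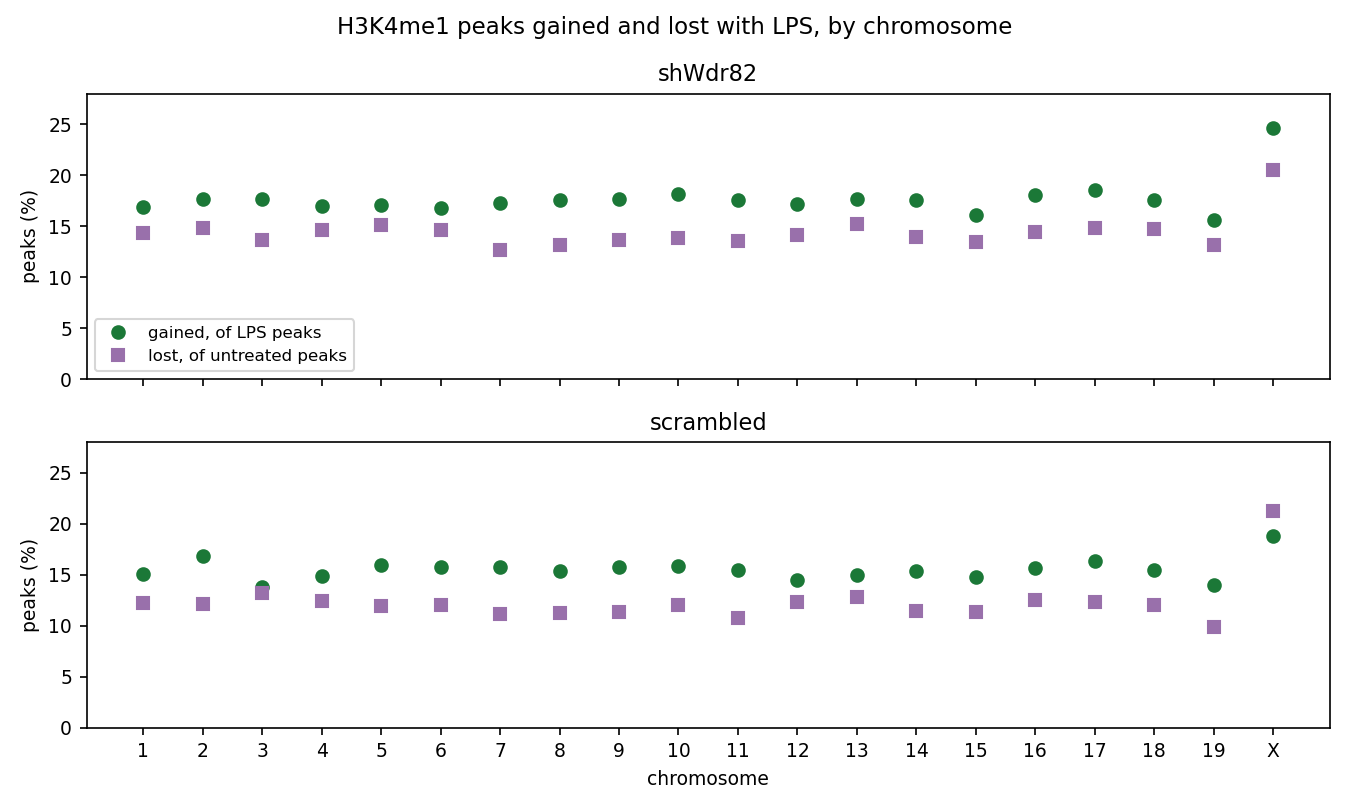
Share of H3K4me1 peaks gained with LPS (circles, percent of the LPS list) and lost with LPS (squares, percent of the untreated list) on each chromosome, for shWdr82 cells above and scrambled cells below, with 1 library per group. Chromosome X stands above the other chromosomes in both vectors, at 24.6% gained in shWdr82 cells and 18.8% in scrambled cells.

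Most peaks gained in a vector were not gained in the other. Of the peaks gained in shWdr82 cells, 1719 (15.9%, 15.2 to 16.6) met a peak that was also gained in scrambled cells, and 1102 (10.2%, 9.61 to 10.8) met a peak that was lost there. A further 3814 (35.2%) lay at peaks that scrambled cells had in both treatments, and 4069 (37.5%) met no H3K4me1 peak in scrambled cells. Of the peaks gained in scrambled cells, 1724 (17.1%, 16.3 to 17.8) were also gained in shWdr82 cells, 1180 (11.7%, 11.1 to 12.3) met a lost peak, 3072 (30.4%) lay at peaks present in both treatments, and 3951 (39.1%) met none. For lost peaks the same class was rarer than the opposite class with all deposited peaks. In shWdr82 cells 975 lost peaks (11.3%, 10.6 to 11.97) were also lost in scrambled cells, and 1189 (13.8%, 13.0 to 14.5) met a gained peak. With lists of equal length, 1203 regions were lost in both and 996 lost in shWdr82 and gained in scrambled cells, so the order for shWdr82 cells turned round.

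Gained peaks of higher score lay more often at sites that the other vector had marked in both treatments. Of the 1037 peaks gained in shWdr82 cells with a score of at least 150, 65.6% lay at peaks present in both treatments of scrambled cells, against 23.4% of the 2761 with scores from 50 to 60. Of the 1004 peaks gained in scrambled cells with a score of at least 150, 52.0% lay at peaks present in both treatments of shWdr82 cells, against 19.3% of the 2590 with scores from 50 to 60. Where gained peaks of both vectors met, the median width was 1259 bp at scores from 50 to 60 and 3204 bp from 150 on. A wider peak makes an overlap likelier, and the part of width in these shares was not tested. The share gained in the other vector too changed little with score, between 13.7% and 18.2% for peaks gained in shWdr82 cells and between 14.4% and 18.7% for peaks gained in scrambled cells.

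With all deposited peaks, regions gained in both vectors were the most frequent of the 4 changing patterns. Merging the 4 lists gave 76449 H3K4me1 regions, of which 40360 (52.8%) had a peak in every library. Gained peaks of both vectors met in 1709 regions, 2.24% of all regions, and lost peaks of both vectors met in 963 regions, 1.26%. The patterns in which the vectors moved in opposite directions are set beside them, and with 1 library per group a response that depends on the vector and a difference between libraries cannot be told apart in them. They numbered 1099 regions gained in shWdr82 and lost in scrambled cells, and 1176 lost in shWdr82 and gained in scrambled cells. Kept peaks of both vectors met in 41651 regions. Regions gained in both outnumbered regions lost in both on 20 of 20 chromosomes, and their share of a chromosome's regions ran from 1.78% on chromosome 1 to 2.80% on chromosome X. A few of them, 43 (2.52%), also shared a base with an untreated peak of either vector, since merging joins peaks that overlap in part.

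The size of this surplus changed with the lengths of the lists. With lists of that equal length, 1318 regions were gained in both and 1203 lost in both, while the opposite patterns numbered 1264 and 996. The number gained in both was then close to that of the pattern gained in shWdr82 and lost in scrambled cells. With every list held to a score of at least 100, which shortens the lists without making them equal, 1341 were gained in both, 612 lost in both, and 835 and 769 moved in opposite directions.

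**Figure D2:**
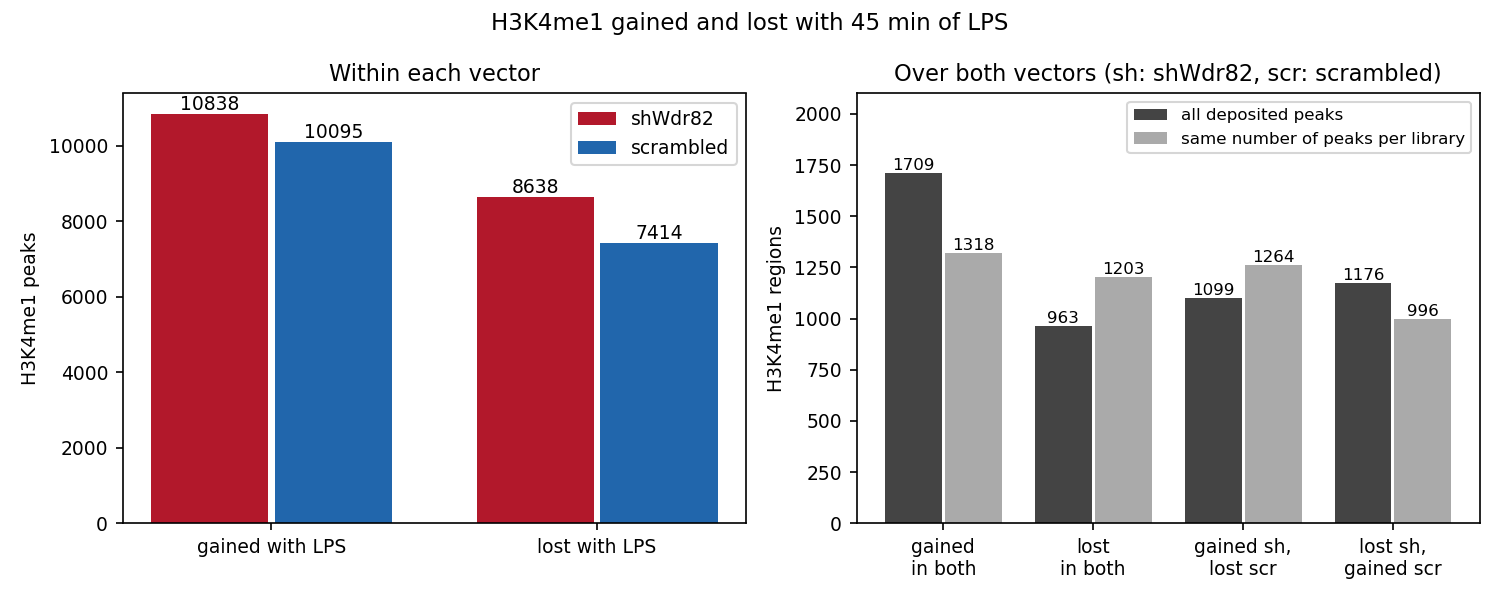
Left, H3K4me1 peaks gained and lost with LPS in shWdr82 and scrambled cells. Right, regions by their pattern over both vectors, with all deposited peaks (dark) and with lists of equal length (light), where the 1709 regions gained in both become 1318 and the 963 lost in both become 1203.

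Regions gained in both lay closer to promoter marks and to existing H3K4me1 than regions lost in both. Their median widths were 1369 bp and 1333 bp, against 2425 bp for regions kept in both. An H3K4me3 peak of any library, the mark of active and poised promoters, lay within 2500 bp of 34.8% (32.5 to 37.1) of regions gained in both and of 24.2% (21.5 to 27.0) of regions lost in both. The opposite patterns had 29.4% and 28.2%, and all H3K4me1 regions 32.0%. Away from H3K4me3, another 15.5% (13.8 to 17.3) of regions gained in both and 20.9% (18.3 to 23.6) of regions lost in both overlapped an H3K36me3 peak. H3K36me3 is the mark of transcribed gene bodies, and 1 bp shared with a peak of any library was enough. The median distance to the nearest kept H3K4me1 peak was 3669 bp for regions gained in both and 5172 bp for regions lost in both. Within 1000 bp of a kept peak lay 480 regions gained in both (28.1%), and 282 (16.5%) lay 20000 bp or more from any. These shares were 23.9% and 20.7% for regions lost in both. They were 25.2% and 20.1% for regions gained in shWdr82 and lost in scrambled cells, and 24.9% and 18.4% for the reverse.

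Peaks gained in a single vector, with no peak of the other vector in either treatment, differed between the vectors in where they lay. With 1 library per group a difference between vectors and a difference between libraries cannot be told apart here. Within 2500 bp of H3K4me3 were 17.2% (16.1 to 18.4) of the 4069 gained in shWdr82 cells alone and 38.3% (36.8 to 39.8) of the 3951 gained in scrambled cells alone. The share of all H3K4me1 regions, which are wider, was 32.0%. Total Pol II and H3K27ac were both present after LPS in both vectors at 4.47% (3.86 to 5.15) of those gained in shWdr82 cells alone and at 13.6% (12.6 to 14.8) of those gained in scrambled cells alone. Over all H3K4me1 regions this was 15.8%. None of total Pol II, Ser2P and H3K27ac had a peak in any library at 65.2% of those gained in shWdr82 cells alone and at 49.9% of those gained in scrambled cells alone. Of all H3K4me1 regions 38.5% had none.

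Of the 1709 regions gained in both, 577 (33.8%, 31.5 to 36.1) held total Pol II at 45 min in both vectors or H3K27ac at 4 h in both vectors. The background over all 76449 H3K4me1 regions, whose median width was 1905 bp, was 39.4%. Both were held at 199 regions (11.6%, 10.2 to 13.3), against 15.8% of all H3K4me1 regions. H3K27ac without total Pol II was found at 280 regions (16.4%, against 19.2% of all) and total Pol II without H3K27ac at 98 (5.73%, against 4.40% of all). Total Pol II, Ser2P and H3K27ac were together at 37 regions (2.17%), against 2.37% of all. No peak of total Pol II, Ser2P or H3K27ac in any of the libraries of these antibodies was found at 838 regions (49.0%, 46.6 to 51.4), against 38.5% of all H3K4me1 regions. Of the 963 regions lost in both, 237 (24.6%, 21.9 to 27.5) held total Pol II or H3K27ac after LPS in both vectors, and 543 (56.4%, 53.2 to 59.5) held none of the 3 marks in any library.

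H3K27ac was the mark that most often appeared where H3K4me1 was gained. Of the 1709 regions, 522 (30.5%) held an H3K27ac peak in shWdr82 LPS cells and 442 (25.9%) in shWdr82 untreated cells. In cells with the empty vector 527 (30.8%) held a peak after LPS and 409 (23.9%) untreated. H3K27ac was held after LPS in both vectors by 479 regions (28.03%), against 35.0% of all H3K4me1 regions. The share was higher after LPS by 4.68 points (2.65 to 6.71) in shWdr82 cells and by 6.90 points (4.88 to 8.93) in empty vector cells. The LPS lists of H3K27ac were shorter than the untreated ones, with 28462 peaks against 31677 in shWdr82 cells and 28986 against 32486 in empty vector cells. With H3K27ac lists of equal length the differences were 7.14 points in shWdr82 cells and 9.01 in empty vector cells.

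H3K27ac was not more frequent after LPS at regions where H3K4me1 was kept, and differed little at regions where it was lost. Regions kept in both had H3K27ac at 47.6% in shWdr82 LPS cells and 58.1% in shWdr82 untreated cells. In empty vector cells they had it at 48.6% after LPS and at 56.7% untreated. At regions lost in both the LPS minus untreated differences were -1.14 points in shWdr82 cells and 0.519 in empty vector cells. At peaks gained in shWdr82 cells alone they were 2.61 and 5.75 points (4.67 to 6.83). At peaks gained in scrambled cells alone they were 0.430 and 2.91 points. At regions gained in shWdr82 and lost in scrambled cells they were 0.637 and 2.55 points, and at the reverse -0.680 and -0.255. So in empty vector cells H3K27ac was also more frequent after LPS at sites where scrambled cells gained no H3K4me1. These values are with all deposited H3K27ac peaks, and the part of the shorter LPS lists in them was not tested. Since regions kept in both are wider, the comparison was repeated in the central 1000 bp of each region, where the differences for regions gained in both were 4.51 points (2.42 to 6.59) in shWdr82 and 6.90 (4.85 to 8.96) in empty vector cells, against -10.7 points and -7.60 points for regions kept in both.

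**Figure D3:**
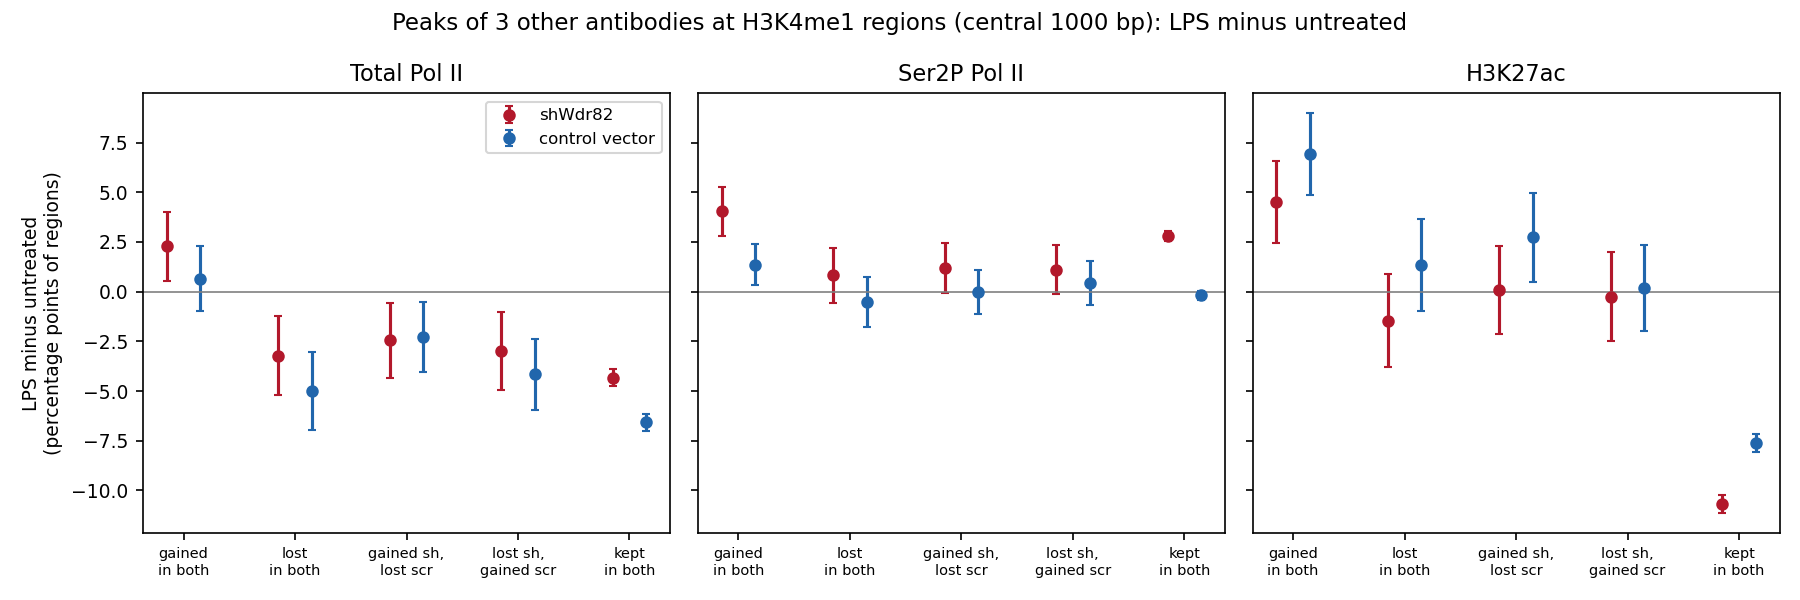
LPS minus untreated difference in the percentage of H3K4me1 regions whose central 1000 bp held a peak of total Pol II, Ser2P Pol II or H3K27ac, by the pattern of H3K4me1 (sh, shWdr82; scr, scrambled). Points are shWdr82 cells and control vector cells, bars are 95% paired Wald intervals over regions, and H3K27ac at regions gained in both is above 0 in both vectors, at 4.51 and 6.90 points.

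A new peak is defined as a peak in both LPS libraries and in neither untreated library of an antibody, and a gone peak as the reverse. New H3K27ac was found at 169 regions gained in both (9.89%, 8.51 to 11.4), against 4.84% of all H3K4me1 regions. It was found at 41 regions lost in both (4.26%, 3.07 to 5.73), and at 62 (5.64%, 4.35 to 7.17) and 68 (5.78%, 4.52 to 7.27) of the opposite patterns. Gone H3K27ac was found at 65 regions gained in both (3.80%, 2.95 to 4.82), against 7.87% of all H3K4me1 regions. A new peak needs a region without untreated H3K27ac and a gone peak a region with it, so the background over all regions is not like for like. In untreated shWdr82 and empty vector cells H3K27ac was held by 43.3% and 42.1% of all H3K4me1 regions. It was held by 25.9% and 23.9% of regions gained in both, and by 23.4% and 22.6% of regions lost in both. So at regions gained in both, new H3K27ac peaks were more numerous than gone ones, whereas at regions lost in both each kind was found 41 times. With equal lengths of the H3K4me1 lists, new H3K27ac was found at 9.79% (8.24 to 11.5) of regions gained in both, at 4.07% (3.03 to 5.35) of regions lost in both, and at 5.62% and 5.32% of the opposite patterns.

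**Figure D4:**
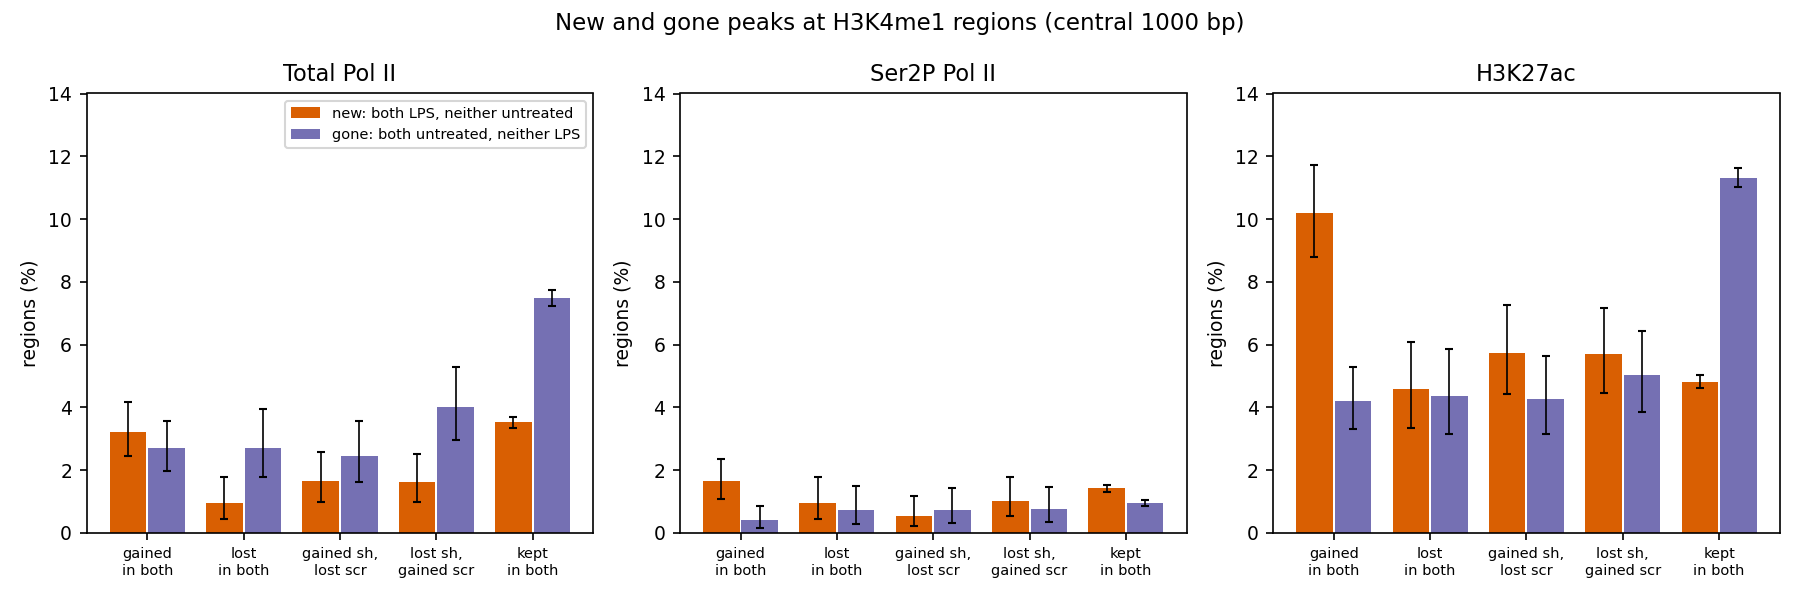
Percentage of H3K4me1 regions of each pattern whose central 1000 bp held a new peak (both LPS libraries, neither untreated) or a gone peak (the reverse) of total Pol II, Ser2P Pol II or H3K27ac, with exact 95% intervals. New H3K27ac reaches 10.2% at regions gained in both, against 4.57% at regions lost in both and 4.82% at regions kept in both. Fewer regions kept in both could have a new peak. In untreated shWdr82 and empty vector cells 54.5% and 52.9% of them held H3K27ac, against 24.9% and 23.1% of regions gained in both.

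As a share of all regions gained in both, new H3K27ac was more frequent away from promoter marks. It was found at 129 of the 1115 regions gained in both that lay 2500 bp or more from H3K4me3 (11.6%, 9.75 to 13.6), and at 40 of the 594 that lay nearer (6.73%, 4.85 to 9.06). At regions lost in both the shares were 4.93% (3.48 to 6.76) away from H3K4me3 and 2.15% (0.700 to 4.94) near it. A new peak needs a region without untreated H3K27ac, and such regions were not counted by position or score. Of the 594 nearer regions gained in both, 278 held H3K27ac after LPS in both vectors, 40 of them as new. Of the 1115 others 201 held it, 129 of them as new. So these shares are not like for like, and the order among regions without untreated H3K27ac was not tested. The share with new H3K27ac varied less with the distance to existing H3K4me1. New H3K27ac was found at 10.2% of regions gained in both that lay under 1000 bp from a kept peak, at 11.5% from 1000 to 5000 bp, at 9.43% from 5000 to 20000 bp and at 7.45% (4.67 to 11.2) from 20000 bp on, where regions lost in both had 1.51% (0.312 to 4.34). The score of the H3K4me1 gain gave no even order. The shares were 9.34% for scores from 50 to 60, 10.9% from 60 to 80, 4.98% from 80 to 100, 15.2% from 100 to 150 and 8.16% from 150 on, the last from 49 regions.

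**Figure D5:**
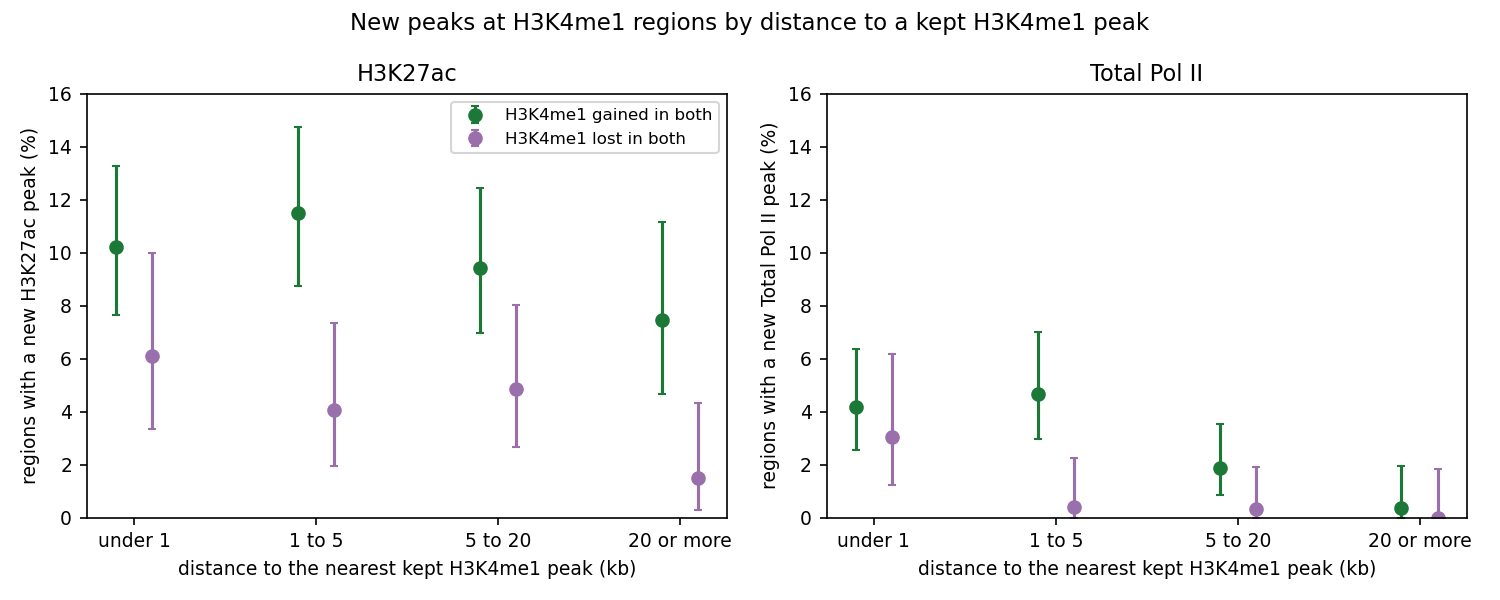
Percentage of regions with a new H3K27ac peak (left) and a new total Pol II peak (right) by distance to the nearest kept H3K4me1 peak, for regions gained in both and lost in both, with exact 95% intervals. Regions gained in both hold new H3K27ac at 7.45% to 11.5% in all 4 bins, and new total Pol II at 4.68% from 1000 to 5000 bp and 0.355% from 20000 bp on.

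Total Pol II differed less between treatments at the gained regions than H3K27ac. Of the 1709 regions, 392 (22.9%) held a total Pol II peak in shWdr82 LPS cells and 350 (20.5%) in shWdr82 untreated cells. In scrambled cells 353 (20.7%) held a peak after LPS and 354 (20.7%) untreated. The differences were 2.46 points (0.722 to 4.19) in shWdr82 cells and -0.0585 points (-1.64 to 1.52) in scrambled cells, the second within counting error. Here too the LPS lists were the shorter ones, with 22307 peaks against 28497 in shWdr82 cells and 21891 against 32385 in scrambled cells. With Pol II lists of equal length the difference in scrambled cells was 2.93 points (1.43 to 4.42). With every H3K4me1 list at a score of at least 100 the difference in shWdr82 cells was 0.895 points (-1.26 to 3.05), within counting error. Regions lost in both had total Pol II less often after LPS, with differences of -2.60 points in shWdr82 cells and -5.61 points in scrambled cells. Regions kept in both had differences of -3.62 points in shWdr82 cells and -7.34 points in scrambled cells. The differences at lost and kept regions are with all deposited Pol II peaks, and the part of the shorter LPS lists in them was not tested. With Pol II lists of equal length, gone total Pol II at regions lost in both fell from 31 regions to 18, and new total Pol II stayed at 9.

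A total Pol II peak in both LPS libraries was found at 297 regions gained in both (17.4%, 15.6 to 19.3), against 20.2% of all H3K4me1 regions, and 216 of the regions gained in both held Pol II in all 4 libraries. New total Pol II was found at 52 regions gained in both (3.04%, 2.28 to 3.97), against 2.53% of all H3K4me1 regions, so this share is near the background. It was found at 9 regions lost in both (0.935%, 0.428 to 1.77), and at 17 (1.55%) and 15 (1.28%) of the opposite patterns. Gone total Pol II was found at 43 regions gained in both (2.52%), against 5.86% of all H3K4me1 regions. With Pol II lists of equal length it was found at 30 regions gained in both. In untreated shWdr82 and scrambled cells total Pol II was held by 27.5% and 29.1% of all H3K4me1 regions. It was held by 20.5% and 20.7% of regions gained in both, so neither background is like for like. New total Pol II lay at 20 of the 480 regions gained in both that were under 1000 bp from a kept H3K4me1 peak, at 22 of the 470 from 1000 to 5000 bp, and at 1 of the 282 that were 20000 bp or more away.

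Ser2P Pol II, the elongating form, was found at fewer regions. It was present at 164 (9.60%) of the regions gained in both in shWdr82 LPS cells and at 96 (5.62%) in shWdr82 untreated cells. In scrambled cells it was present at 124 (7.26%) after LPS and at 98 (5.73%) untreated. The differences were 3.98 points (2.71 to 5.25) in shWdr82 cells and 1.52 points (0.424 to 2.62) in scrambled cells. With Ser2P peaks of a score of at least 100 the second was 0.819 points (-0.140 to 1.78), within counting error. Ser2P was held after LPS in both vectors by 92 regions (5.38%), against 5.58% of all H3K4me1 regions. In shWdr82 cells the difference was not limited to gained regions, since regions kept in both had Ser2P more often by 2.73 points after LPS. Ser2P peaks covered 60.6 Mb in shWdr82 LPS cells and 43.0 Mb in shWdr82 untreated cells, and the part of this in the differences was not tested. In scrambled cells regions kept in both differed by -0.163 points. New Ser2P was found at 33 regions gained in both (1.93%, 1.33 to 2.70), against 1.35% of all H3K4me1 regions, and at 8 regions lost in both (0.831%, 0.359 to 1.63). Gone Ser2P was found at 9 regions gained in both (0.527%), against 0.989% of all. These backgrounds are not like for like either, since 7.05% and 7.41% of all regions held Ser2P in untreated shWdr82 and scrambled cells.

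The marks of promoters and gene bodies changed little at regions gained in both. H3K4me3 was found at 448 regions in shWdr82 LPS cells and at 445 in shWdr82 untreated cells, and at 425 after LPS and 430 untreated in empty vector cells. No region gained in both had new H3K4me3, with an exact upper limit of 0.216%. This is rare over all 76449 H3K4me1 regions too. H3K4me3 was present after LPS and absent untreated at 761 of them in shWdr82 cells and at 527 in empty vector cells, so at most 527 can have it new. H3K36me3 was found at 283 regions in shWdr82 LPS cells and at 263 in shWdr82 untreated cells, and at 272 after LPS and 295 untreated in scrambled cells.

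New total Pol II or new H3K27ac was found at 207 regions gained in both (12.1%, 10.6 to 13.8), against 7.05% of all H3K4me1 regions, and at 50 regions lost in both (5.19%, 3.88 to 6.79). Fewer of the regions gained in both than of all H3K4me1 regions held H3K27ac untreated, so the background is not like for like. Total Pol II and H3K27ac were both new at 14 regions gained in both (0.819%, 0.449 to 1.37), against 0.326% of all H3K4me1 regions. Of the other patterns, 0 of 963 regions lost in both had this combination, with an exact upper limit of 0.382%, and the opposite patterns had it at 2 and 6 regions. The 14 regions had a median width of 2135 bp, 8 lay within 2500 bp of an H3K4me3 peak, 8 lay within 1000 bp of a kept H3K4me1 peak, and 2 had new Ser2P as well.

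The 10 of these 14 with the highest lower H3K4me1 score were taken as examples. The first, chr17:87365861-87373501, was 7641 bp wide, and its H3K4me1 score was 140 in shWdr82 LPS cells and 340 in scrambled LPS cells. It held H3K36me3 in all 4 libraries and no H3K4me3, and a kept H3K4me1 peak lay 205 bp away. At chr5:137540566-137543434, of 2869 bp, total Pol II, Ser2P and H3K27ac were all present after LPS in both vectors and absent in all untreated libraries, and the nearest H3K4me3 peak was 4103 bp away. The region chr1:64987530-64989659 lay 12348 bp from the nearest H3K4me3 peak, and chr16:27403619-27404990 lay 11350 bp from it, and neither held Ser2P in any library. By contrast chr1:12982579-12983712, chrX:11653289-11655517 and chr5:77786288-77787035 held H3K4me3 in all 4 libraries of that antibody. The region on X also touched an untreated H3K4me1 peak of shWdr82 cells. The remaining 3 were chr12:114097233-114100827, chr3:152131240-152133379 and chr3:145992907-145995539.

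The regions gained in both with the highest scores looked different from these. The 10 highest had lower scores of the vector pair from 301 to 1416 and widths from 3159 to 28522 bp. All 10 held H3K27ac in all 4 libraries, untreated cells included, and none had new total Pol II, Ser2P or H3K27ac. Of the 10, 8 lay within 1000 bp of a kept H3K4me1 peak. Over all regions gained in both, 16.4% held H3K27ac in all 4 libraries and 28.1% lay within 1000 bp of a kept peak. The first of the 10, chr11:119792850-119800734, scored 1416 in shWdr82 LPS cells and 1470 in scrambled LPS cells and had untreated H3K4me1 peaks no nearer than 3852 bp. It abutted the fifth, chr11:119785217-119792832, with 17 bp between them. Likewise 25 bp separated chr19:41391181-41404166 from chr19:41404192-41409283, and 3 bp separated chr10:92720756-92733642 from chr10:92733646-92736804. These 3 pairs are thus neighbouring parts of 3 wide stretches of H3K4me1.

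The highest-scoring regions lost in both were of the same kind. The first, chr4:138749211-138762347, scored 3100 in both untreated lists and held total Pol II, H3K27ac and H3K4me3 in all 4 libraries of each antibody, LPS included. Of the 10 highest, 8 held H3K27ac in all 4 libraries and 6 lay within 1000 bp of a kept H3K4me1 peak. Over all regions lost in both these shares were 14.4% and 23.9%. Among regions with a score of at least 150, a width above 5000 bp was found at 14 of 49 gained in both (28.6%) and at 15 of 26 lost in both (57.7%). Over all regions the shares were 1.64% of those gained in both and 2.80% of those lost in both. H3K27ac in all 4 libraries was found at 53.1% of these gained and 50.0% of these lost regions, against 16.4% and 14.4% of all. The regions of high score are wider, with medians of 3204 bp for gained and 5789 bp for lost, which makes an overlap likelier.

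When regions gained in both were ranked among those holding total Pol II and H3K27ac after LPS in both vectors, the 10 highest lay near promoter marks. The highest, chr9:44793095-44795809, scored 266 in shWdr82 LPS cells and 296 in scrambled LPS cells and held total Pol II, H3K27ac and H3K4me3 in all 4 libraries, with the nearest kept H3K4me1 peak 17301 bp away. All 10 lay within 2500 bp of an H3K4me3 peak, and 7 held total Pol II and H3K27ac in every library. Such a position was common among regions with total Pol II, whether or not they held H3K27ac, and was not split by score. Of the 297 regions gained in both with total Pol II in both LPS libraries, 227 lay within 2500 bp of H3K4me3. At chr11:53574040-53577337 and chr11:82873668-82877729, where Pol II and H3K27ac were present in all libraries, Ser2P was found after LPS in both vectors and in neither untreated library.

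Seen from H3K27ac, few regions that gained acetylation also had new H3K4me1. H3K27ac was gained at 4 h in both vectors at 5045 regions. H3K4me1 was present at 44.3% of them in shWdr82 LPS cells and at 40.1% in shWdr82 untreated cells, and at 44.6% after LPS and 40.8% untreated in scrambled cells. At 1672 (33.1%) H3K4me1 was present in both untreated libraries, and at 2246 (44.5%) no H3K4me1 list had a peak. New H3K4me1 was found at 114 (2.26%, 1.87 to 2.71) and gone H3K4me1 at 31 (0.614%, 0.418 to 0.871). At regions with H3K27ac kept in both vectors, new H3K4me1 was found at 0.730% (0.610 to 0.865) and gone H3K4me1 at 0.362%, and at regions with H3K27ac lost in both vectors at 0.798% and 0.516%. These shares are over all regions of a class, and most regions with kept or lost H3K27ac had H3K4me1 already. Among regions with no H3K4me1 in either untreated library the order turned round, with new H3K4me1 at 4.32% (3.58 to 5.17) of those with gained, 6.97% (5.23 to 9.06) of those with lost and 9.54% (8.04 to 11.2) of those with kept H3K27ac. Seen from total Pol II, of the 2076 regions gained at 45 min in both vectors, 22 (1.06%, 0.665 to 1.60) had new H3K4me1 and 4 gone H3K4me1, while 977 (47.1%) had H3K4me1 in both untreated libraries. Regions with total Pol II kept in both vectors had new H3K4me1 at 0.955% (0.784 to 1.15), which overlaps that interval. Among regions with no untreated H3K4me1 it was found at 2.34% (1.47 to 3.52) with gained and 3.44% (2.83 to 4.14) with kept total Pol II.

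Kept peaks changed little in width. Over 44825 peaks of shWdr82 cells that overlapped 1 to 1, the median log2 ratio of LPS width over untreated width was 0.036, with an SD of 0.0055 over the 20 chromosome medians, all 20 of them above 0. Over 47289 such peaks of scrambled cells it was -0.0038, with an SD of 0.011, and 6 of 20 chromosome medians were above 0. In shWdr82 cells 635 peaks (1.42%) at least doubled and 238 fell to at most 50% in width. In scrambled cells 382 at least doubled and 444 fell to at most 50%. Doubled peaks of both vectors met in 16 regions and peaks that fell so far in 7, while 11 and 5 moved in opposite directions.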

How the data were processed

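Per the submitters' processing notes, which give no role or order, the tools were Bowtie 0.12.7 and MACS 1.4 and the build mm9. Each deposited list holds a position and a peak score, the authors' own value, from 50 to 3233, used only for ranking and filtering inside a list. Peaks were called per library, as the separate numbering of each list shows. Depth and the input are unknown: the sources used here do not give them.

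Lists were compared by overlap of at least 1 bp with Python 3.11.15, numpy 2.4.6 and scipy 1.17.1, after a check on simulated lists. Regions in both vectors are groups of overlapping gained, lost or kept peaks that hold a peak of each vector. Width ratios were taken over 1 to 1 overlaps. Named regions were the 10 with the highest lower score of the vector pair, for gained, lost, gained with total Pol II and H3K27ac, and gained with both new. Regions on chromosome 18 were counted and not named. Members and lists were chosen with earlier results of these data known. Alternatives changed the score, the number of peaks, the overlap, the gap, the window and the distance to H3K4me3.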

Additional observations from a re-analysis of the deposited data

Results flagged for a closer look

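At regions gained in both vectors, the LPS minus untreated difference had opposite signs in the 2 vectors for 3 antibodies, and none of these differences between vectors was tested. For total Pol II it was 2.46 points (0.722 to 4.19) in shWdr82 cells and -0.0585 points (-1.64 to 1.52) in scrambled cells, the second within counting error and above 0 in 6 of 10 alternatives, up to 2.93 points. For H3K4me3 it was 0.176 points (-0.463 to 0.814) in shWdr82 cells and -0.293 points (-1.03 to 0.442) in empty vector cells, both within counting error. For H3K36me3 it was 1.17 points (0.284 to 2.06) in shWdr82 cells and -1.35 points (-2.27 to -0.423) in scrambled cells. The shWdr82 LPS list of H3K36me3 was longer than its untreated list, with 38062 peaks against 34042, while in scrambled cells it was shorter, with 33445 against 37166, and the part of this in the result was not tested. The median log2 width ratio of kept H3K4me1 peaks, LPS over untreated, was 0.036 in shWdr82 cells and -0.0038 in scrambled cells, and this difference was not tested either.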

How the results depend on the processing

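At regions gained in both, no LPS minus untreated difference of total Pol II, Ser2P or H3K27ac whose interval excluded 0 with all deposited peaks changed sign under the alternatives run. The LPS minus untreated difference of total Pol II at regions gained in both ran from 0.895 to 4.39 points in shWdr82 cells and from -0.820 to 2.93 points in scrambled cells, where it was -0.0585 with all deposited peaks. At regions kept in both, H3K4me3 in shWdr82 cells differed by -0.531 points (-0.684 to -0.377) over whole regions and by 0.423 points (0.248 to 0.597) in the central 1000 bp. With every H3K4me1 list at a score of at least 100, the peaks lost in shWdr82 cells numbered 5686 and the regions lost in both 612, and at regions gained in both total Pol II was held after LPS in both vectors by 21.0%, H3K27ac by 35.6% and new total Pol II by 4.33%. With the gained and lost peaks alone held to that score, 2788 peaks were gained and 1971 lost in shWdr82 cells, 2632 gained and 1718 lost in scrambled cells, and 194 regions gained and 95 lost in both. The opposite patterns then numbered 80 gained in shWdr82 and lost in scrambled cells, and 129 the reverse. Of those 194, 6.19% had new total Pol II, 3.09% new Ser2P, 13.4% new H3K27ac and 42.3% H3K27ac after LPS in both vectors. There the interval for new H3K27ac at regions gained in both, 8.95% to 19.02%, overlapped that at regions lost in both, 1.73% to 11.9%. With a gap of at least 1000 bp to the other list, total Pol II was held by 12.3% and H3K27ac by 23.0%. At 2500 bp or more from H3K4me3, total Pol II was held by 6.28%, Ser2P by 3.86% and H3K27ac by 18.03%, with new H3K27ac at 11.6%. With the other antibody at a score of at least 100 these were 14.7%, 4.27%, 23.6% and 8.37%. With 60602 peaks in each H3K4me1 list, scrambled cells had fewer peaks gained (7850) than lost (8778), a setting that takes most peaks from the scrambled LPS list. The other counts of peaks gained or lost and of regions gained or lost in both stayed within 1.5 times. The other shares at regions gained in both stayed within their intervals. Regions lost in shWdr82 and gained in scrambled cells fell from 1176 to 769 with all lists at a score of at least 100. The median log2 width ratio in scrambled cells, -0.0038 with all deposited peaks, was -0.0058 with all lists at that score. No paired analysis was possible because the results are counts and overlaps of peak lists that come from no test. Depth is unknown, so a region without a peak may still hold signal below the threshold.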
